A study of Canis lupus familiaris with 5 samples.

Results

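Of the 6031 peaks that canine DUXC gave in cultured dog myoblasts, 2568 (42.6%) overlapped by not even 1 bp any peak of human DUX4 or of the canine isoform DUXC-ALT. These 2568 sites, called DUXC-alone peaks here, are set against the other 3463 DUXC peaks, of which 3317 overlapped DUX4 peaks only, 102 DUXC-ALT peaks only and 44 both. All 3 lists together held 92417 peaks, of which 85825 were DUX4 peaks and only 561 were DUXC-ALT peaks. The measurement was chromatin immunoprecipitation and sequencing (ChIP-seq), in which an antiserum pulls down the DNA a factor is bound to and each peak marks a stretch with more reads than its surroundings.

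The study held 5 libraries from immortalized canine myoblasts, 1 per group, so that no difference has a replicate check and no p-value is given. In 3 of them the factor was switched on with doxycycline (1 µg/ml, 24 hours): DUXC in a monoclonal line, DUXC-ALT in a polyclonal line and human DUX4 in a monoclonal line. The controls were a monoclonal and a polyclonal luciferase line, labelled as not inducible by doxycycline. The canine proteins were chimeras whose C-terminal domain was that of human DUX4, which let a single rabbit antiserum serve every factor. The DUXC list therefore comes from 1 clone, and clonality differs from the DUXC-ALT line along with the protein.

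DUX4 and DUXC are double homeobox factors: a pair of DNA-binding homeodomains recognises the target, and the C-terminal domain activates transcription. DUX4 is active in the early embryo, and its return in skeletal muscle underlies facioscapulohumeral dystrophy. Many of its binding sites in human cells lie in repeats, which fall into LINEs such as L1 (elements that copy themselves through RNA), SINEs (short elements that borrow the L1 machinery; the SINEC families are those of carnivores) and LTRs (the ends of old retroviruses). In dogs, L1_Cf and L1_Canis1 are among the young L1 families, and full-length copies of such families are much alike in sequence.

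The DUXC-alone peaks included strong sites in and near named genes. The highest, with a fold enrichment of 25.3 over the local background and a signal height (pileup) of 54, lay in intron 4 of 6 of LMO2, a transcriptional cofactor gene of blood development (canFam3 chromosome 18, 33814951 to 33815475). The lists assign it to CAPRIN1, whose TSS (transcription start site) is 81216 bp away, and the nearest DUX4 peak was 7425 bp away. The next lay in intron 6 of 24 of USP37, a deubiquitinase gene, in a SINEC_Cf copy (fold enrichment 21.4; chromosome 37, 25157903 to 25158429), with the nearest DUX4 peak 84171 bp away. The third lay 3256 bp upstream of the chemokine gene CTACK (20.2; chromosome 11, 51338847 to 51339291). These were followed by exon 11 of 12 of TBC1D2B (19.9), a site 14232 bp downstream of the start of JMJD6, a hydroxylase gene (18.6), and intron 4 of 4 of COX4I2, a cytochrome c oxidase subunit gene (18.3), in a MER21C copy. Further down the ranking were sites near CYP1B1, a cytochrome P450 gene (17.5, in a MER31-int copy), TIMM29, of mitochondrial protein import (17.1, in SINEC_a2), L3MBTL3, a methyl-lysine reader gene (15.9), UPB1, of pyrimidine breakdown (15.8), FGF18, a growth factor gene (15.7, in L2a), and LMTK3, a kinase gene (15.4). None of these 12 peaks had a raised local background, which means more than 3 times the lowest percentile of local backgrounds in the DUXC list.

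Strength and overlap were related, and since the members were chosen by overlap these values are a description only. The median fold enrichment was 6.64 at DUXC-alone peaks (95% interval of the median 6.56 to 6.77, quartiles 5.58 and 7.95) and 7.20 at other DUXC peaks (7.19 to 7.29, quartiles 6.03 and 8.88). Fold enrichment ran between 1.28 and 25.3 at DUXC-alone peaks and between 1.74 and 44.3 at the others. The DUXC-alone share of the list was 54.0% in the weakest of 5 equal groups by fold enrichment, then 47.7%, 42.9% and 39.2%, and 29.1% in the strongest. A fold enrichment of at least 10 was reached by 202 DUXC-alone peaks (7.87%, exact 95% interval 6.85 to 8.98%) and by 564 others (16.3%, 15.1 to 17.6%). Median pileup was 15 in both sets. Median width was 292 bp at DUXC-alone peaks (289 to 295 bp) and 307 bp at the others (304 to 311 bp), and the median local background 1.36 and 1.19. The intervals cover counting error only, and peaks of 1 library are not replicates.

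Few peaks lay close to the boundary set by the 1 bp rule. Only 13 DUXC-alone peaks had a DUX4 peak within 100 bp and 2 within 10 bp, while 11 of the DUX4-overlapping DUXC peaks shared 100 bp or less and 0 shared 10 bp or less. The median overlap of those 3361 peaks was 280 bp. Stricter definitions of a shared site enlarged the DUXC-alone set. It held 2819 peaks when 50% of both intervals had to overlap, and 2938 when summits had to lie within 100 bp. Among peaks with a gene symbol, the nearest misses lay in intron 1 of GHR, the growth hormone receptor gene (3 bp from a DUX4 peak, fold enrichment 5.88), at POLDIP3 (39 bp, 6.84, in SINEC_Cf3) and upstream of SPTBN1, a spectrin gene (72 bp, 7.16, in SINEC_c1). The farthest with a symbol were AGAP1 (130817 bp, 8.88), cfa-mir-1199 (132058 bp, 4.24) and VSTM2B (177060 bp, 14.2).

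The median DUXC-alone peak lay 10497 bp from the nearest DUX4 peak (10010 to 11084 bp, quartiles 4480.75 and 22683.5 bp). A DUX4 peak lay within 1 kb of 135 peaks (5.26%, 4.43 to 6.19%), within 5 kb of 698 (27.2%) and within 10 kb of 1231 (47.9%), and 158 had none within 50 kb. The DUX4 list is itself dense, with a median gap of 16969 bp between consecutive peaks. Whether these distances differ from those of random sites was not tested. DUXC-ALT peaks were far sparser, with a median distance of 1608679 bp and 2 DUXC-alone peaks within 1 kb of one.

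**Figure D1:**
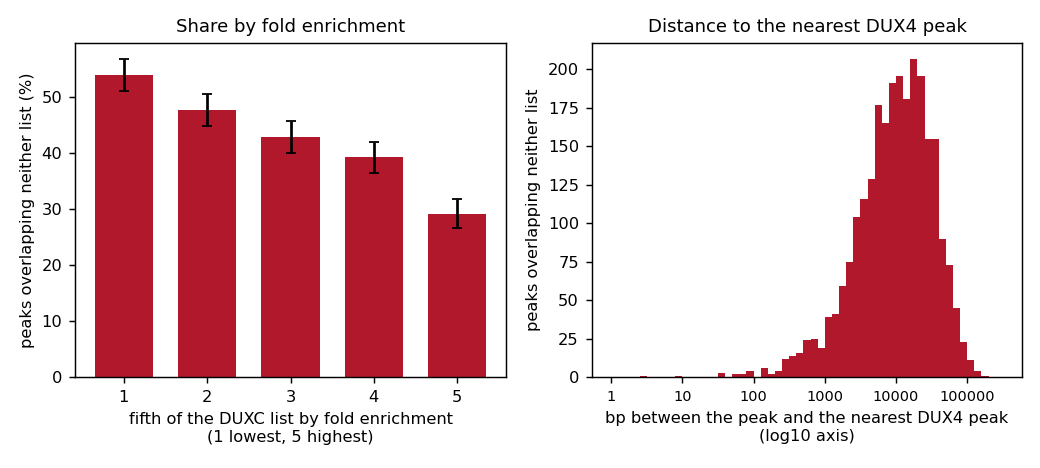
Left, the share of DUXC peaks that overlapped neither the DUX4 nor the DUXC-ALT list (y axis, percent; bars are exact 95% intervals) in 5 equal groups of the DUXC list ordered by fold enrichment (x axis). The share was 54.0% in the weakest and 29.1% in the strongest group. Right, the number of these peaks (y axis) by distance to the nearest DUX4 peak (x axis, bp, log10 scale), with a median of 10497 bp.

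Young L1 copies held a larger share of the DUXC-alone peaks than of the other DUXC peaks. LINEs held 506 of their summits (19.7%, 18.2 to 21.3%) and 455 of the other summits (13.1%, 12.03 to 14.3%), and the excess came from L1_Cf and L1_Canis1. Those families held 364 DUXC-alone summits (14.2%, 12.8 to 15.6%) and 201 others (5.80%, 5.05 to 6.64%). Of the 160 DUXC summits in L1_Cf, 157 were in the DUXC-alone set (98.1%, 94.6 to 99.6%) and 3 among the others, although the DUX4 list had 153 L1_Cf summits of its own. L1_Canis1 held 207 DUXC-alone and 198 other summits, and 6741 DUX4 summits. L1_Canid_ held 8 DUXC-alone (0.312%, 0.135 to 0.613%) and 60 other summits (1.73%, 1.32 to 2.22%), the opposite order. The LINEs outside these 3 families held 134 DUXC-alone (5.22%, 4.39 to 6.15%) and 194 other summits (5.60%, 4.86 to 6.42%), with overlapping intervals.

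Within these young L1 copies the DUXC-alone summits gathered in 1 place. A stretch of 4600 to 5000 bp from the 3′ end of the annotated copy, chosen after the positions were seen, held 194 of the 364 DUXC-alone summits (53.3%, 48.02 to 58.5%), against 2 of the 201 other DUXC summits (0.995%, 0.121 to 3.55%) and 55 of the 6894 DUX4 summits (0.798%, 0.602 to 1.04%). The last 500 bp before the 3′ end held 35 DUXC-alone summits (9.62%, 6.79 to 13.1%), against 177 other DUXC summits (88.1%, 82.8 to 92.2%) and 4570 DUX4 summits (66.3%, 65.2 to 67.4%). DUXC thus had summits at both places, 196 of all its 565 summits in these families in the stretch and 212 near the 3′ end. By family, these counts were 104 and 5 in L1_Cf, and 92 and 207 in L1_Canis1. The split between the sets follows in part from the rule itself, because a DUXC peak where DUX4 peaks are frequent is likely to overlap one. Many copies are also too short to hold the stretch: the median copy under a DUX4 summit was 1160.5 bp long. Over copies of at least 5000 bp, which do hold it, the counts were 190 of 223 DUXC-alone summits (85.2%, 79.9 to 89.6%), 2 of 18 other DUXC summits (11.1%, 1.38 to 34.7%) and 51 of 894 DUX4 summits (5.70%, 4.28 to 7.43%). In these long copies the last 500 bp held 0 DUXC-alone, 13 other DUXC (72.2%) and 249 DUX4 summits (27.9%, 24.9 to 30.9%). Of all 241 DUXC summits in them, 192 lay in the stretch and 13 in the last 500 bp. In L1_Cf copies of any length, the last 500 bp held 55 of 153 DUX4 summits (35.9%), and the 100 bp bin that begins at 800 bp held 51 (33.3%). In L1_Canis1 the bins that begin at 2200 and 2300 bp held 227 and 570 DUX4 summits. The DUX4 list had a small rise of its own in the stretch, with 18 and 30 summits in the 100 bp bins that begin at 4700 and 4800 bp, against 1 to 6 per bin between 4000 and 4700 bp.

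Summits lay in the stretch in both families and in the longest copies. It held 104 of 157 DUXC-alone summits in L1_Cf (66.2%, 58.3 to 73.6%) and 90 of 207 in L1_Canis1 (43.5%, 36.6 to 50.5%). In L1_Cf copies of at least 5000 bp it held 103 of 124 DUXC-alone summits (83.1%, 75.3 to 89.2%) and 0 of 39 DUX4 summits (exact upper limit 9.03%). In the longest copies of both families, of at least 6000 bp, it held 153 of 164 DUXC-alone summits (93.3%, 88.3 to 96.6%), 1 of 13 other DUXC summits and 28 of 497 DUX4 summits (5.63%, 3.78 to 8.04%). The median position of the 194 summits was 4797.5 bp from the 3′ end, with quartiles of 4761 and 4817.5 bp, and 1423.5 bp from the 5′ end. The copies had a median length of 6207.5 bp, and 100 of the 194 lay on the plus strand. Positions are counted from the ends of each annotated copy, so a copy cut short at its 3′ end would be misplaced.

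**Figure D2:**
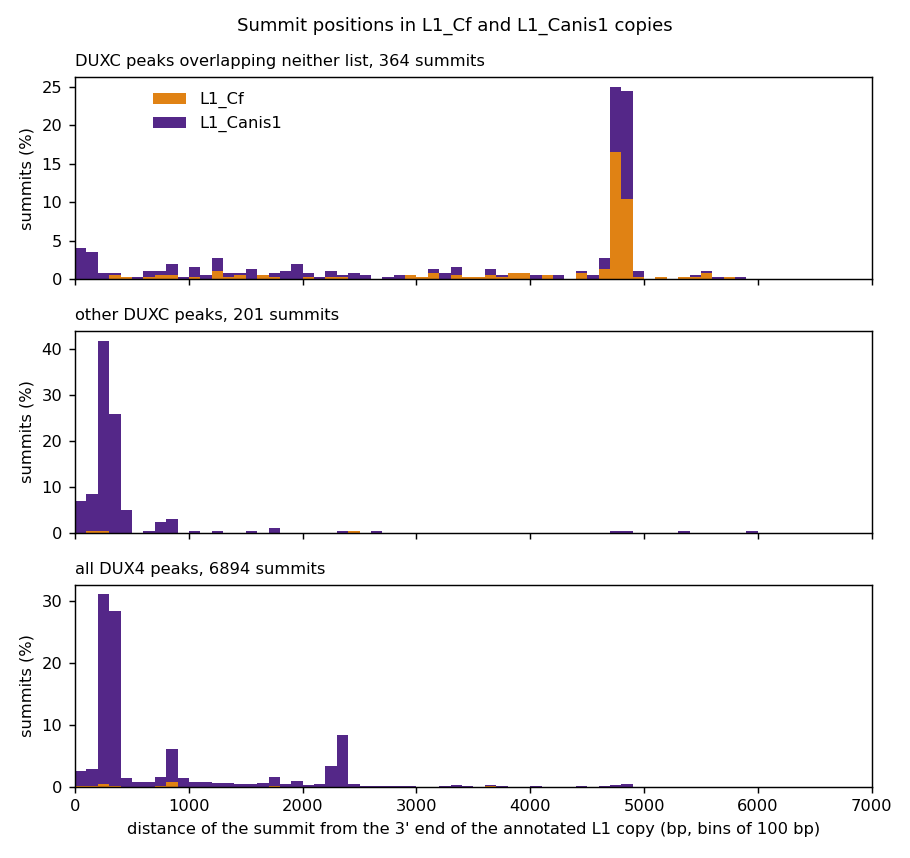
Distance of peak summits from the 3′ end of the L1_Cf or L1_Canis1 copy that holds them (x axis, bp, bins of 100 bp; y axis, percent of the summits in the panel, stacked by family) for DUXC-alone peaks (top, 364 summits), other DUXC peaks (middle, 201) and all DUX4 peaks (bottom, 6894). DUXC-alone summits pile up in the stretch between 4600 and 5000 bp, which holds 53.3% of them. Over copies of all lengths, many too short to hold the stretch, the other sets pile up within 500 bp of the 3′ end. In copies of at least 5000 bp that end held 27.9% of DUX4 summits.

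The 194 peaks were of middling strength and spread over the genome. They made up 7.55% of the DUXC-alone peaks, lay on 37 chromosomes in 194 different copies, and had a median fold enrichment of 6.36 (range 4.03 to 11.8) and a median width of 274 bp. Local background was raised at 23 of them. Distal intergenic sequence held 133 (68.6%) and introns 58 (29.9%), and 0 lay within 1 kb of a TSS. A DUX4 peak lay elsewhere in the same copy in 14 cases (7.22%, 4.001 to 11.8%), and a peak of the other DUXC set in 1. For DUXC-alone peaks of these families outside the stretch, 7 of 168 copies had a DUX4 peak (4.17%, 1.69 to 8.40%), with overlapping intervals. Further DUXC-alone peaks in the same copy were not counted.

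Among the peaks of this stretch with a named nearest gene, the strongest lay 78997 bp upstream of SUPT20H, a gene of the SAGA coactivator complex (fold enrichment 10.8; chromosome 25, 3581560 to 3581964), in an L1_Canis1 copy of 6366 bp with its summit 4792 bp from the 3′ end. It was followed by a site 10435 bp upstream of TSFM, which encodes a mitochondrial translation elongation factor (10.6; 4813 bp from the 3′ end), and intron 5 of 5 of CLEC7A, which encodes the receptor dectin-1 (10.2; 4804 bp). The strongest in L1_Cf lay 35899 bp upstream of CHRM2, a muscarinic receptor gene (9.91; chromosome 16, 11554945 to 11555249), also with its summit 4804 bp from the 3′ end. SUPT20H, TSFM and CLEC7A were picked after their values were seen. How reads that match many L1 copies were assigned is not given in the sources used here, and its part in these counts was not tested.

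SINEs showed the reverse order. They held 279 DUXC-alone summits (10.9%, 9.69 to 12.1%) and 679 others (19.6%, 18.3 to 21.0%), and the DUXC-alone share was the lower one in each of the 5 groups by fold enrichment (9.51 to 12.4%, against 13.9 to 25.1%). SINEC families accounted for this, with 228 DUXC-alone (8.88%, 7.81 to 10.05%) and 612 other summits (17.7%, 16.4 to 19.0%), while the older MIR family held 1.91% of both. In SINEC_Cf, the family of the USP37 site, there were 52 DUXC-alone and 166 other summits.

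Summits also differed in place along the SINEC copies. Peaks that overlapped their recorded SINEC numbered 442 in the DUXC-alone set, 1105 in the other DUXC set and 7515 in the DUX4 list. The summit lay within 50 bp of the 3′ end in 50 DUXC-alone peaks (11.3%, 8.51 to 14.6%), against 376 other DUXC peaks (34.0%, 31.2 to 36.9%) and 2477 DUX4 peaks (33.0%, 31.9 to 34.0%). It lay within 50 bp of the 5′ end in 216 DUXC-alone (48.9%, 44.1 to 53.6%), 354 other DUXC (32.04%, 29.3 to 34.9%) and 1960 DUX4 peaks (26.1%, 25.1 to 27.1%). The median distance from the 3′ end was 153 bp in DUXC-alone peaks and 86 bp in the others, in copies with median lengths of 179 and 174 bp. The USP37 summit, 166 bp from the 3′ end of a copy of 185 bp, the TIMM29 summit, 155 bp into 177 bp, and the DYRK3 summit, 135 bp into 149 bp, lay within 50 bp of the 5′ end. The RPS24 summit, 116 bp into a copy of 187 bp, and the SPTBN1 summit, 102 bp into 183 bp, lay nearer the middle. DUX4 peaks were frequent at both ends of the copy, and more so at the 3′ end. The part of the rule itself in the difference was not tested.

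**Figure D3:**
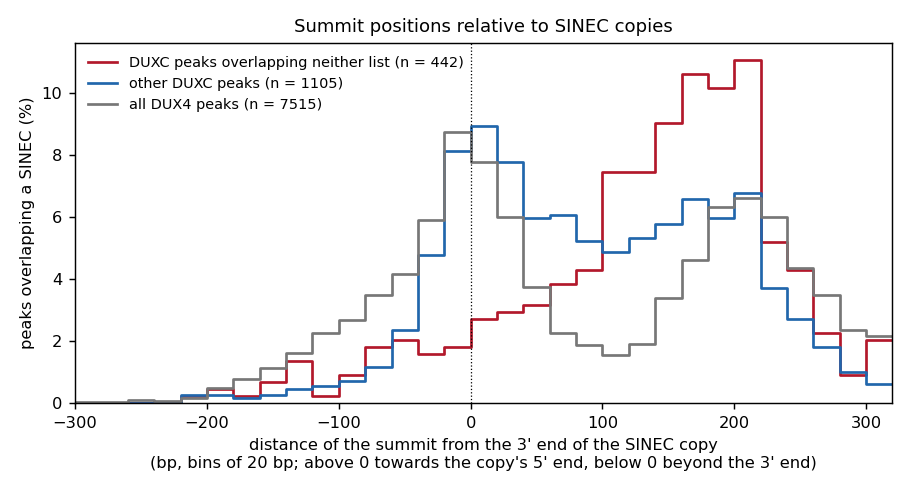
Position of peak summits relative to the 3′ end of the SINEC copy they overlap (x axis, bp, bins of 20 bp; values above 0 run towards the 5′ end of the copy, values below 0 lie beyond the 3′ end) as percent of the peaks in each set (y axis). DUXC-alone peaks (442) are highest towards the 5′ end, with a median of 153 bp, while the other DUXC peaks (1105, median 86 bp) and DUX4 peaks (7515) have a further maximum at the 3′ end.

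LTRs as a whole held much the same share of both sets, 13.5% of DUXC-alone summits (12.2 to 14.9%) and 13.9% of other summits (12.8 to 15.1%), but their families differed in direction. The ERVL family held 185 DUXC-alone (7.20%, 6.23 to 8.27%) and 176 other summits (5.08%, 4.37 to 5.87%). ERVL-MaLR, a related family, held 131 (5.10%, 4.28 to 6.02%) and 260 (7.51%, 6.65 to 8.44%). In the ERVL group, MLT2C1 held 21 DUXC-alone and 5 other summits, and MER77B 13 and 6. The strongest named MLT2C1 sites, picked after their values were seen, lay 27024 bp upstream of CHST11, a chondroitin sulfotransferase gene (11.2), in intron 5 of 23 of AFF3 (11.2) and 2550 bp upstream of PID1 (11.02). Copies of MER21C or MER21B held 122 DUXC-alone (4.75%, 3.96 to 5.65%) and 136 other summits (3.93%, 3.31 to 4.63%), with overlapping intervals. The DUXC-ALT list of 561 peaks had 263 summits in MER21C and 17 in MER21B, and the DUX4 list had 439 in both (0.512%). The rule leaves out DUXC peaks that overlap DUXC-ALT peaks, and its part in this comparison was not tested. In MER21C the summits lay at like positions in both sets, a median of 258 bp from the 5′ end in 113 DUXC-alone peaks (quartiles 206 and 292 bp) and 268.5 bp in 126 other peaks (209 and 309 bp). Any repeat held 47.4% of DUXC-alone and 48.1% of other summits.

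**Figure D4:**
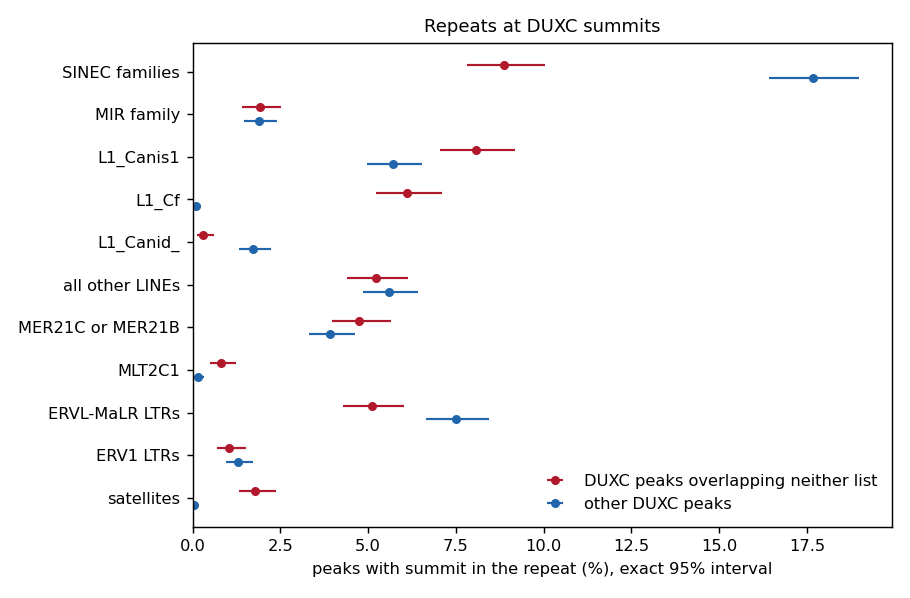
Share of summits in each repeat group (x axis, percent, with exact 95% intervals) for DUXC-alone peaks (red, upper, n = 2568) and other DUXC peaks (blue, lower, n = 3463). L1_Cf, L1_Canis1, MLT2C1 and satellites have the higher share in DUXC-alone peaks, and SINEC families, L1_Canid_ and ERVL-MaLR LTRs the lower one; the intervals of all other LINEs, MIR, ERV1 and MER21 overlap.

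The share near gene starts was higher in the DUXC-alone set, by a narrow margin. A TSS lay within 1 kb of 144 DUXC-alone peaks (5.61%, 4.75 to 6.57%) and 137 others (3.96%, 3.33 to 4.66%), and the DUXC-alone share was the higher one in each of the 5 groups by fold enrichment. It was also higher under all 11 alternative settings, but in 7 of them the intervals of the sets overlapped. One of these left out only the mitochondrial genome (5.42%, 4.58 to 6.37%, against 3.93%, 3.31 to 4.63%). Another left out peaks with raised local background (5.35%, 4.47 to 6.36%, against 3.87%, 3.23 to 4.59%). In the whole DUX4 list the share was 2.27%. Whether the rule itself bears on the difference was not tested. Local background was raised at 21 of the 144 DUXC-alone peaks (14.6%), against 10.6% of all DUXC-alone peaks. Within 5 kb the shares were 17.1% (15.7 to 18.6%) and 16.2% (15.0 to 17.4%), with overlapping intervals. Exons held 68 DUXC-alone peaks (2.65%, 2.06 to 3.34%) and 53 others (1.53%, 1.15 to 2.00%), and introns 30.8% (29.0 to 32.6%) and 34.0% (32.4 to 35.6%). Distal intergenic sequence held 53.1% and 52.6%.

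The strongest DUXC-alone peak within 1 kb of a TSS was 776 bp inside UPB1 (fold enrichment 15.8; chromosome 26, 28195857 to 28196316). SERPINF1, which encodes the anti-angiogenic factor PEDF, had a peak 110 bp inside the gene (14.4; chromosome 9, 45891158 to 45891600). Further such peaks lay at PGS1, an enzyme gene of cardiolipin synthesis (13.2), PLD1, a phospholipase D gene (11.98), EIF4EBP3, a repressor of translation initiation (11.5), and KRBA2 (11.3). RPS24, a ribosomal protein gene (10.8), and DYRK3, a kinase gene (10.4), had their summits in SINEC copies, and NFIC, which encodes a nuclear factor I protein, also had a peak (10.4). The nearest DUX4 peak to these sites was between 2049 bp away, at DYRK3, and 79661 bp, at NFIC.

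Most DUXC-alone peaks were the only one at their gene. They had 2302 different nearest genes, of which 2099 had 1 such peak, 177 had 2, 21 had 3, 2 had 4, 2 had 14 and 1 had 16. Of these genes, 438 (19.03%) were also nearest to another DUXC peak, which is 14.2% of the genes of the other peaks. A DUX4 peak was nearest to 1912 of the 2302 genes (83.1%), but the DUX4 list is nearest to 21249 genes in all. Named genes with 3 peaks were FAM19A5 (highest fold enrichment 12.4), GOLGB1 (9.30), PPP1R12A, a myosin phosphatase subunit gene (8.75), UGT2B31, a glucuronosyltransferase gene (8.23), SPATA19 (8.20), MUC4, a mucin gene (7.63), and CACNA1C, a calcium channel gene (7.35). Another DUXC peak of either set lay within 10 kb of 258 DUXC-alone peaks (10.05%, 8.91 to 11.3%) and of 262 others (7.57%, 6.71 to 8.50%). These counts were not recomputed without the peaks at the genes with 14 or 16, most of which had raised local background.

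Gene lists for DUX4 biology, pluripotency, muscle and other functions were set beside all named genes. Over all 10804 genes named in the lists, 265 (2.45%) had such a peak within 5 kb of the TSS and 337 (3.12%) another DUXC peak. Of 10 gene lists, 4 had 1 gene each with a DUXC-alone peak within 5 kb. These were RAX, an eye-field homeobox gene, among 24 PRD-class and double homeobox genes (fold enrichment 5.93), DNMT1, the maintenance DNA methyltransferase gene, among 26 Polycomb and chromatin genes (8.05), PDGFRB, a growth factor receptor gene, among 16 fibroblast genes (6.999, 257 bp upstream), and CKMT2, a mitochondrial creatine kinase gene, among 17 muscle structural genes (5.59). The CKMT2 peak lay in an intron of a neighbouring gene with no symbol. The count was 0 of 22 DUX4 target and cleavage-stage genes, 0 of 20 myogenic and satellite cell genes, 0 of 17 pluripotency and germline genes, 0 of 26 cell cycle genes, 0 of 20 splicing genes and 0 of 25 housekeeping genes. Another DUXC peak was near 2, 0, 0, 1, 3 and 1 genes of these lists. With so few genes per list, counts of 0 and 1 are not told apart from the 2.45% of all genes.

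Within 50 kb, 952 of all named genes (8.81%) had a DUXC-alone peak and 1277 (11.8%) another DUXC peak. Of 22 DUX4 target and cleavage-stage genes, 3 had a DUXC-alone one: CCNA1, a germline cyclin gene, LEUTX, a homeobox gene of the early embryo, and SLC34A2, a phosphate transporter gene. Of 17 pluripotency and germline genes, 3 had one (BMP15, TDRD1 and TFAP2C), as had 3 of 25 housekeeping genes. The myogenic list still held 0 of 20 genes, with 5 of 20 near another DUXC peak (CAV3, EYA2, MET, SDC4 and VCAM1). The exact 95% intervals of these DUXC-alone shares all included the 8.81% of all named genes.

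A small group of DUXC-alone peaks had very low fold enrichment on very high signal. Satellites, rRNA repeats and the mitochondrial genome held 55 DUXC-alone peaks and 2 others. The 55 had a median fold enrichment of 1.61, a median pileup of 197 and a median local background of 119, and 54 of them had a raised local background. The satellite Bs held 21 (fold enrichment 1.28 to 1.61, local background 83.6 to 334), SAT1_CF 12 (1.34 to 3.16) and Carsat2 13, all on chromosome X (2.04 to 3.51). The first 231199 bp of chromosome 1 held 16 DUXC-alone peaks assigned to AP002962.1, 15 of them with raised local background. Each of the 2 genes with 14 peaks, neither with a symbol, had 13 with raised local background; the peaks lay within the first 328036 bp of chromosome 6 and at 49570038 to 49721166 on chromosome X. On the mitochondrial genome, 5 of the 6 DUXC peaks overlapped no other list. Over the whole set, raised local background was found at 271 DUXC-alone peaks (10.6%, 9.39 to 11.8%) and 232 others (6.70%, 5.89 to 7.58%). A fold enrichment under 2 occurred in 39 DUXC-alone peaks and 2 others. Whether signal of this kind was also present in the luciferase libraries was not tested.

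On the nuclear chromosomes the DUXC-alone share was lowest on chromosome 35 (31.2%, 20.2 to 44.1%) and highest on chromosome 32 (51.02%, 36.3 to 65.6%), with overlapping intervals. Chromosome X had the most of these peaks, 192 of its 396 DUXC peaks (48.5%, 43.5 to 53.5%). On chromosome 24 the share was 42.1% (36.1 to 48.4%), close to that of the whole list.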

How the data were processed

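Peak lists for DUXC, DUX4 and DUXC-ALT were used, 1 per library. CASAVA, BWA 0.7.10, MACS2 2.1.0 and the build canFam3 are listed in the submitters' processing notes without their roles. The control library, the threshold and the number of reads are not given in the sources used here, so depth is unknown. The pileup is the signal height the authors deposited, whole numbers in the DUXC list. Fold enrichment is the authors' deposited ratio of signal to local background, each with 1 added, so that the local background is (pileup + 1) / fold enrichment − 1. The deposited −log10 q-value of the authors' caller was at least 2.03 for DUXC. The deposited annotation gives the nearest gene, the feature and at most 1 repeat per peak. A repeat held a peak when the summit lay in it.

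Overlaps were computed in pandas 2.3.3 and numpy 2.4.6 under Python 3.11.15, intervals in scipy 1.17.1 and plots in matplotlib 3.10.9. The overlap code was tested on simulated data with known answers. Shares carry exact Clopper-Pearson 95% intervals, medians a binomial order-statistic interval. The sites, the gene lists and the alternatives were chosen with earlier results of these data known. Named genes are, among DUXC-alone peaks with a symbol (52.7%), the 12 strongest, the 10 strongest within 1 kb of a TSS, genes of the lists within 5 kb, up to 8 genes with at least 3 peaks, the 3 nearest to and 3 farthest from DUX4, and the strongest in each of the 5 commonest repeat families. Some genes that this rule picks are not reported here. Of 1189 symbols, 1063 (89.4%) are in the RefSeq table of dog genes, of another assembly (UU_Cfam_GSD_1.0), used for names only.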

Additional observations from a re-analysis of the deposited data

How the results depend on the processing

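The 7 values on DUXC-alone peaks (number, median fold enrichment, median width, share within 1 kb of a TSS, SINE share, LINE share and median distance to DUX4) were recomputed under 13 settings, 74 values in all. Of these, 56 stayed within the interval of the reported value (or within 1.5 times, for the number), 17 moved and 1 changed direction. The change of direction was the LINE share without L1_Cf and L1_Canis1 summits, a setting chosen after their positions were seen: 6.44% of DUXC-alone (5.45 to 7.55%) against 7.79% of other peaks (6.89 to 8.76%), with overlapping intervals, and the SINE share was then 12.7%. With L1_Canid_ also left out, a setting added after its counts were seen, the LINE shares were 6.10% and 6.06%. The median distance to DUX4 was 9478 bp when 50% of both peaks had to overlap, 8579 bp when summits had to lie within 100 bp (SINE share 12.8%) and 11291 bp when a gap of up to 1000 bp counted as shared. At fold enrichment of at least 10 there were 202 peaks, with median fold enrichment 11.1, width 369 bp, 7.43% within 1 kb of a TSS, 12.9% in SINEs, 10.9% in LINEs and a distance of 11804 bp; the fewer and stronger peaks follow from its construction. Median fold enrichment was 7.02 at −log10 q of at least 5 and 6.84 without raised local background. With a repeat counted wherever the peak touched it, SINEs had 23.0% and LINEs 23.9%. The cause of the other moves was not tested. With 50 kb in place of 5 kb, 7 of 10 gene lists moved: 3 DUX4 target, 2 homeobox, 2 cell cycle, 2 fibroblast, 3 housekeeping, 3 pluripotency and 2 splicing genes.

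A search for the double homeobox motif in promoters was planned and not run here. No paired analysis was possible because each group had 1 library. Peak numbers depend on depth and threshold, so absence from the DUX4 or DUXC-ALT list is not absence of binding, and fold enrichments of different lists cannot be compared.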
